A study of Mus musculus with 6 samples.

Results

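The core circadian clock genes were followed in the hearts of sham-operated mice: the activators Arntl, Clock and Npas2 and the repressors Per1, Per2, Per3, Cry1, Cry2, Nr1d1 and Nr1d2. The 10 genes are 10 of the 17447 gene rows of the table. They were chosen by their measured spread between the 3 sham hearts, in which the 2 arms differed in opposite directions, so every level and ratio of these genes below is a description and carries no test. The study sequenced total RNA of heart tissue from wild-type mice in 1 labelled batch, 3 with chronic kidney disease (CKD) and 3 sham-operated. CKD followed a 5/6 subtotal nephrectomy, with removal of the poles of the left kidney and, a week later, of the whole right kidney. Sham mice had the same anaesthesia and exposure of the kidneys with no tissue removed. The sources used here do not give the age, sex or strain of the mice, the time between surgery and collection or the time of day at which hearts were taken. The replicates are named by number only, and the spread between them may therefore be technical in part.

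In the mammalian clock, ARNTL (also called BMAL1) pairs with CLOCK or with its relative NPAS2, and the pair switches on genes through E-box sequences in their promoters. Among these targets are the Per and Cry genes, whose proteins return to block the activators, and Nr1d1 and Nr1d2, which encode the nuclear receptors REV-ERBα and REV-ERBβ. The REV-ERB proteins repress Arntl, Clock and Npas2 through RORE elements. In mouse heart, as in most tissues, the mRNAs of Arntl and of the Per genes are high at opposite times of the day, and the heart clock is known for its control of metabolism and of ion channel genes.

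The row labels were checked before any comparison. Over all 17447 rows the Spearman correlation across genes was -0.0586 to -0.0528 for the 9 pairs of a CKD with a sham column, against 0.984 to 0.987 for the 3 pairs of CKD columns and 0.982 to 0.985 for the 3 pairs of sham columns. The 10 ventricular cardiomyocyte markers had a median percentile of 29.4 among the CKD rows and of 100.0 among the sham rows. The row labelled Clock held 2, 1 and 3 counts in the CKD columns, against 644, 549 and 952 in the sham columns. For the row labelled Per2 the CKD columns read 2527, 2485 and 3317, while the sham columns read 52, 271 and 69. Gene labels of the CKD columns do not match their values in this table, so no CKD heart was compared with a sham heart, and all that follows is from the sham columns alone.

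The sham columns held 10480788, 10474487 and 12669724 counts. Levels are given as CPM, the count divided by the column total and multiplied by 1000000, with exact 95% Poisson intervals that cover counting error only. The label of heart tissue held in each sham column: the 10 ventricular markers summed to 125409, 138026 and 123888 CPM in sham 1, 2 and 3. The hearts differed in other respects. The 8 atrial markers were all highest in sham 1 and lowest in sham 2, with summed levels of 2619, 74.4 and 524 CPM. The 7 fibroblast markers were all lowest in sham 2 and summed to 1805, 936 and 2121 CPM. The 21 measured interferon response genes were all highest in sham 3, at 354, 240 and 1721 CPM in sum, as were the 5 erythroid genes at 111, 82.7 and 485 CPM. Endothelial, macrophage, and smooth muscle and pericyte markers summed to 1017 to 1349, 349 to 562 and 1034 to 1311 CPM, each lowest in sham 2 and highest in sham 3. The 6 lymphocyte markers reached at most 3.72 CPM in sum, the 6 adipocyte markers 1.34 to 19.1 CPM with Ucp1 at 0 in every heart, and the 6 neuron and Schwann cell markers 7.42 to 19.8 CPM with Th at 0. Whether these cell and interferon differences play a part in the clock values was not tested. In whole tissue, fewer cells of a type and less RNA per cell cannot be told apart.

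Arntl, the obligate partner of the activator pair, was high in sham 1 and sham 3 and low in sham 2. It gave 335, 82 and 284 counts in sham 1, 2 and 3, or 32.0, 7.83 and 22.4 CPM, with counting intervals of 28.6 to 35.6, 6.23 to 9.72 and 19.9 to 25.2 CPM that did not overlap. Sham 2 stood at 0.245 of sham 1 (95% counting interval 0.190 to 0.313) and at 0.349 of sham 3 (0.270 to 0.448). Sham 3 stood at 0.701 of sham 1 (0.597 to 0.824). The mean was 20.7 ± 12.2 CPM (SD, n = 3).

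Npas2, which can take the place of CLOCK beside ARNTL, followed almost the same course at a lower count. It gave 118, 25 and 96 counts, or 11.3, 2.39 and 7.58 CPM, and a mean of 7.07 ± 4.46 CPM (SD, n = 3). Sham 2 was again the low heart, at 0.212 of sham 1 (0.132 to 0.329) and 0.315 of sham 3 (0.194 to 0.493). On the scale of log2(CPM + 0.5) deviations from the 3-heart mean, the Euclidean distance between Npas2 and Arntl was 0.0454, the smallest of any pair among the 10 genes. None of the 8761 other genes compared lay nearer to Arntl than Npas2 did.

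Clock, the other partner of ARNTL and a histone acetyltransferase, varied far less. It gave 644, 549 and 952 counts, or 61.4, 52.4 and 75.1 CPM, with a mean of 63.0 ± 11.4 CPM (SD, n = 3). The order of its hearts differed from that of Arntl, since sham 3 was highest, but sham 2 was once more lowest. Sham 2 stood at 0.853 of sham 1 (0.760 to 0.957) and 0.698 of sham 3 (0.627 to 0.776), which are within 1.5-fold. For each count of Arntl there were 1.92 counts of Clock in sham 1, 6.70 in sham 2 and 3.35 in sham 3.

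**Figure D1:**
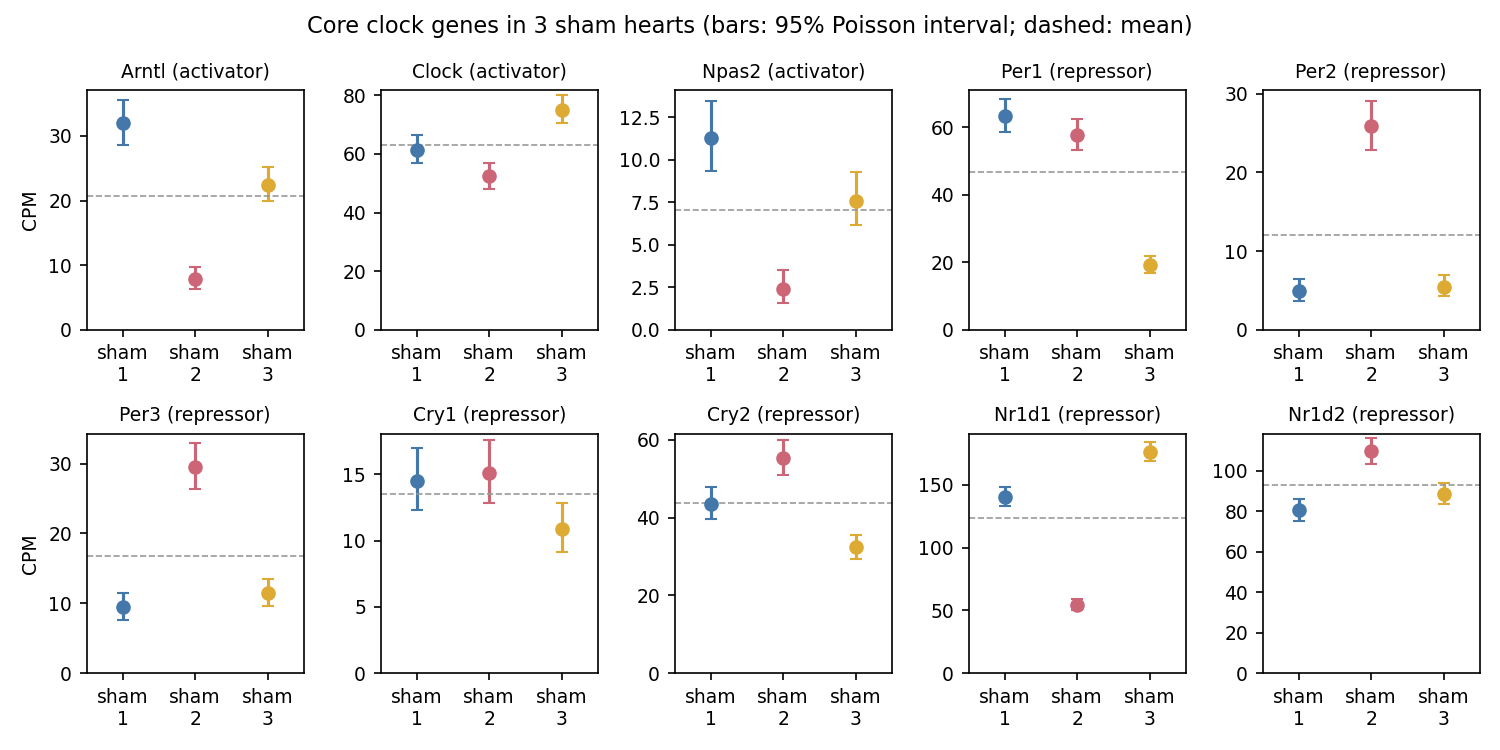
Level of each core clock gene in CPM (vertical axes, each from 0) in sham 1, 2 and 3; points are single hearts, bars are 95% Poisson intervals of the count and the dashed line is the mean of the 3 hearts. Arntl, Npas2 and Nr1d1 are low in sham 2, at 7.83, 2.39 and 54.6 CPM, where Per2 and Per3 are high, at 25.9 and 29.5 CPM.

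Per2, which encodes a scaffold of the PER and CRY repressor complex, had the largest ratio between hearts of the 10 genes. Its counts were 52, 271 and 69 in sham 1, 2 and 3, or 4.96, 25.9 and 5.45 CPM, and the mean was 12.1 ± 11.9 CPM (SD, n = 3). Sham 2 was 5.21-fold above sham 1 (3.86 to 7.16) and 4.75-fold above sham 3 (3.64 to 6.28). Sham 1 and sham 3 could not be separated at this depth, with a ratio of sham 3 to sham 1 of 1.10 (0.755 to 1.60).

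Per3, the Per family member least needed for rhythm in mouse knockouts, had the same order of hearts. It gave 99, 309 and 145 counts, or 9.45, 29.5 and 11.4 CPM, with a mean of 16.8 ± 11.0 CPM (SD, n = 3). The sham 2 level was 3.12-fold that of sham 1 (2.48 to 3.96) and 2.58-fold that of sham 3 (2.11 to 3.16), while sham 3 over sham 1 was 1.21 (0.932 to 1.58). Of all genes compared, 1 lay nearer to Per2 than Per3 did: Wdfy1, an endosomal adaptor protein gene, at 6.68, 32.0 and 6.08 CPM, which was named after its values were seen.

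Per1, the Per gene that also responds quickly to hormones and cAMP signals, did not follow Per2 and Per3. It gave 664, 605 and 244 counts, or 63.4, 57.8 and 19.3 CPM, and sham 3 was the low heart. Sham 2 over sham 1 was 0.912 (0.815 to 1.02), so these hearts were not separated by counting error, and sham 3 stood at 0.304 of sham 1 (0.261 to 0.353). The mean was 46.8 ± 24.0 CPM (SD, n = 3). Per count of Per2 there were 12.8 counts of Per1 in sham 1, 2.23 in sham 2 and 3.54 in sham 3. Of 16 listed glucocorticoid-responsive genes, 11 were highest in sham 1 and 9 lowest in sham 3, and 20 of 25 listed immediate early genes had their peak in sham 1, with 13 lowest in sham 2 and 10 in sham 3. Summed over the list, the glucocorticoid-responsive genes stood at 1408, 974 and 855 CPM and the immediate early genes at 1502, 654 and 662 CPM. Over the 8864 genes with a mean of at least 10 CPM, 36.9% were highest in sham 1, 45.6% lowest in sham 2 and 26.2% lowest in sham 3. That minimum was passed by 15 of the 16 glucocorticoid-responsive genes and 16 of the 25 immediate early genes. The part of both lists in the Per1 values was not tested.

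The cryptochrome genes Cry1 and Cry2 encode the partners that carry most of the repressive activity against CLOCK and ARNTL. Cry1 gave 152, 158 and 138 counts, or 14.5, 15.1 and 10.9 CPM (13.5 ± 2.27, SD, n = 3). Its sham 2 over sham 1 ratio was 1.04 (0.827 to 1.31) and its sham 3 over sham 1 ratio 0.751 (0.592 to 0.952). Cry2 gave 457, 579 and 410 counts, or 43.6, 55.3 and 32.4 CPM (43.7 ± 11.5, SD, n = 3). In Cry2 all 3 hearts were separated by counting error, and sham 2 was 1.27-fold above sham 1 (1.12 to 1.44) and 1.71-fold above sham 3 (1.5 to 1.94).

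Nr1d1, which encodes the repressor of Arntl transcription REV-ERBα, stood apart from the other repressors: its low heart was that of the activators. It gave 1473, 572 and 2234 counts in sham 1, 2 and 3, or 141, 54.6 and 176 CPM, and the mean was 124 ± 62.6 CPM (SD, n = 3). Sham 2 stood at 0.389 of sham 1 (0.352 to 0.428) and 0.310 of sham 3 (0.282 to 0.340), and sham 3 was 1.25-fold above sham 1 (1.17 to 1.34). Among the other 9 clock genes, Arntl was the nearest to Nr1d1 in pattern, with a distance of 0.607, but 140 other genes lay nearer. Exons of Nr1d1 overlap the thyroid hormone receptor gene Thra on the opposite strand, over 263 bp or 8.55% of its exon sequence in GENCODE M21. Whether the counting used strand is unknown from the sources used here, so reads of the shared stretch cannot be told apart. Thra itself was at 128, 94.2 and 115 CPM. Cry2 shares 295 bp of exon with the opposite-strand transcript D930015M05Rik and Arntl 33 bp with Gm45355, so the same limit touches them.

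Nr1d2, which encodes REV-ERBβ, did not share the course of Nr1d1. It gave 845, 1149 and 1125 counts, or 80.6, 110 and 88.8 CPM (93.0 ± 15.0, SD, n = 3), with sham 2 highest. Sham 2 was 1.36-fold above sham 1 (1.24 to 1.49) and 1.24-fold above sham 3 (1.14 to 1.34). For each count of Nr1d2 there were 1.74 counts of Nr1d1 in sham 1 (1.60 to 1.90), 0.498 in sham 2 (0.450 to 0.551) and 1.99 in sham 3 (1.85 to 2.14).

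**Figure D2:**
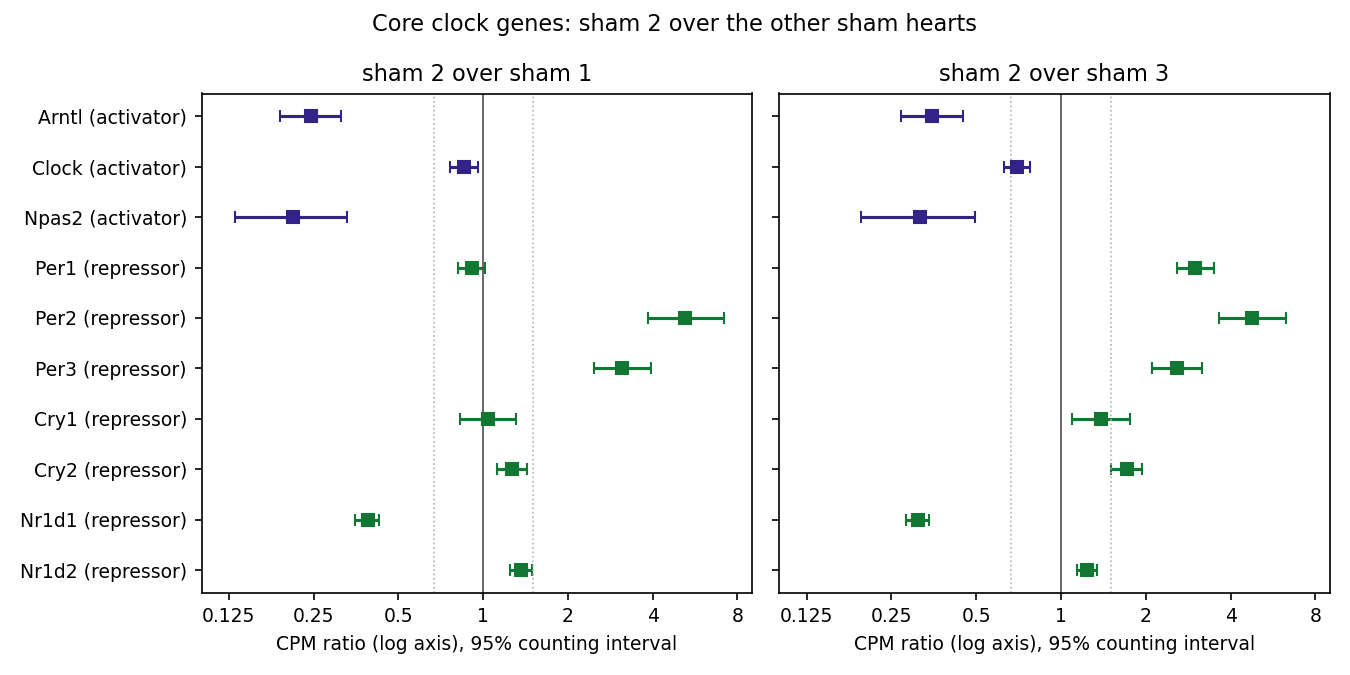
Ratio of CPM in sham 2 to sham 1 (left) and to sham 3 (right) for each core clock gene on a log axis; squares are ratios, bars are 95% counting intervals, the solid line is 1 and dotted lines mark 1.5-fold in either direction. Per2 is at 5.21 and 4.75, Per3 at 3.12 and 2.58, and Arntl at 0.245 and 0.349, while Nr1d1 lies with Arntl at 0.389 and 0.310.

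The arms were compared as the mean over members of the log2 deviation from the 3-heart mean. The activator arm stood at 0.55, -0.85 and 0.30 in sham 1, 2 and 3, and the repressor arm at -0.07, 0.39 and -0.31. The difference, activator minus repressor, was 0.63, -1.24 and 0.61 in the same order, with half-widths of the counting interval of 0.135, 0.226 and 0.139. These half-widths are a normal approximation from the counts of each heart alone. They take the 3-heart mean as free of error and hold counting error alone. The 3 differences sum to 0 by their construction, and the members were picked for this opposition, so the values describe the choice of members. Sham 2 stood at -1.86 against the mean of the other hearts, sham 1 and sham 3 differed by 0.0145, and without sham 2 the value was 0.00727 in sham 1 and -0.00727 in sham 3. Within the repressor arm, the Per genes averaged -0.27, 0.97 and -0.70, the Cry genes 0.07, 0.27 and -0.34, and the Nr1d genes 0.07, -0.38 and 0.31. Without Nr1d1, a choice made after its values were seen, the sham 2 difference was -1.47. All 3 activators were lowest in sham 2, and 5 of 7 repressors (Per2, Per3, Cry1, Cry2 and Nr1d2) were highest there. Of these, Cry1 was not separated from sham 1 by counting error (1.04, 0.827 to 1.31). Over all 8864 genes with a mean of at least 10 CPM, a minimum that Npas2 did not pass, 45.6% were lowest and 23.5% highest in sham 2.

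A ratio of 2 genes within a heart does not depend on how the hearts are scaled. Arntl gave 6.44 counts per count of Per2 in sham 1 (4.80 to 8.80), 0.303 in sham 2 (0.233 to 0.389) and 4.12 in sham 3 (3.15 to 5.44), a span of 21.3-fold. Npas2 per Per2 spanned 24.6-fold, from 2.27 in sham 1 through 1.39 in sham 3 to 0.0923 in sham 2. Arntl per Nr1d1 spanned 1.79-fold, at 0.227, 0.143 and 0.127 in sham 1, 2 and 3.

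The spread between hearts was set beside that of all genes. Over the 8864 genes with a mean of at least 10 CPM the coefficient of variation between the sham hearts had a median of 9.32%. Of the 10 clock genes 9 passed that minimum, and Npas2 did not, with a coefficient of variation of 63.0%. Per2 was at 98.7%, Per3 at 65.8%, Arntl at 58.6%, Per1 at 51.3% and Nr1d1 at 50.5%, which are percentiles 99.5, 98.6, 98.3, 97.9 and 97.8 of those genes. Cry2 at 26.2% was at percentile 92.1, and Clock, Cry1 and Nr1d2 at 18.2%, 16.8% and 16.1% were at percentiles 82.8, 79.7 and 78.1. The genes fall into a pair of sets on this measure, with Arntl, Npas2, Per1, Per2, Per3 and Nr1d1 at 50.5% or more and the other 4 at 26.2% or less.

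**Figure D3:**
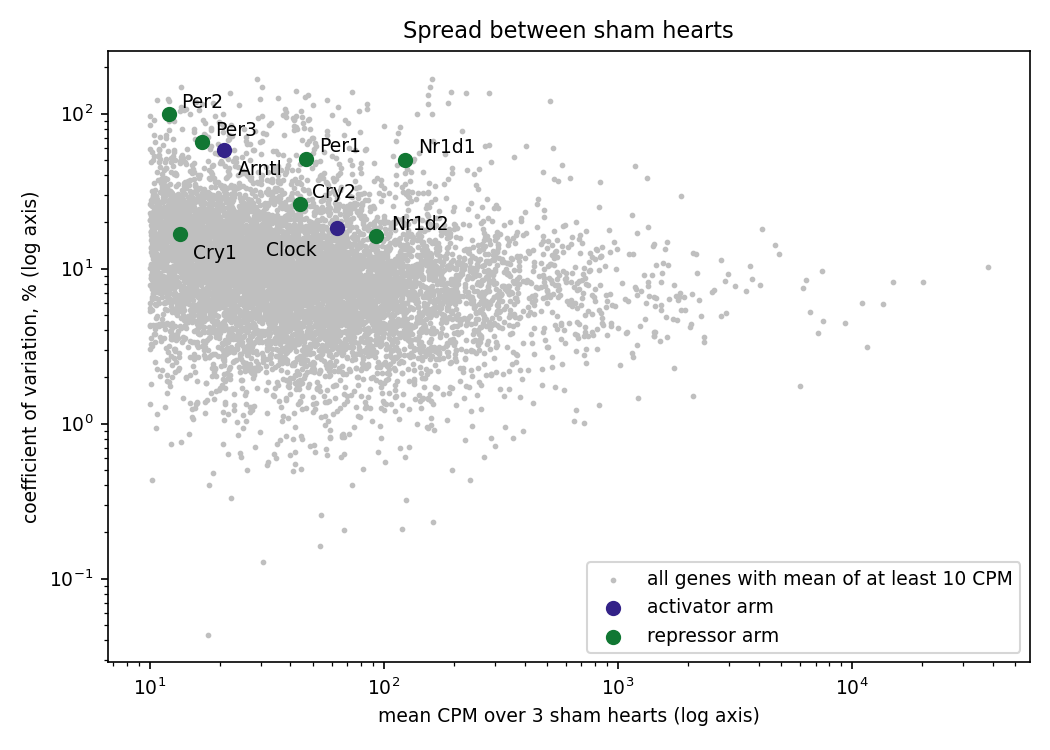
Mean level in CPM (horizontal log axis) and coefficient of variation in percent (vertical log axis) over the 3 sham hearts; grey points are the 8864 genes with a mean of at least 10 CPM and coloured points are the 9 core clock genes that pass this minimum. Per2, Per3, Arntl, Per1 and Nr1d1 lie at 50.5% to 98.7%, above the 95th percentile of 32.0%, and Clock, Cry1 and Nr1d2 at 16.1% to 18.2%.

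Between sham 2 and sham 1, 2 of the 9 genes that passed the minimum were over 1.5-fold higher in sham 2 (Per2 and Per3) and 2 were lower (Arntl and Nr1d1). Of all 8864 genes, 1.42% were higher and 6.16% lower by this rule. With TMM library sizes these were 195 higher and 402 lower genes in place of 126 and 546, since TMM moves the median log2 ratio of all genes to 0.03 from -0.06. Between sham 2 and sham 3, 4 of 9 were higher in sham 2 (Per1, Per2, Per3 and Cry2) and the same 2 lower, against 0.981% and 7.28% of all genes. Between sham 3 and sham 1, Per1 alone of the 9 was past 1.5-fold and was lower in sham 3, where 3.89% of all genes were higher and 1.71% lower. The spread between these hearts chose the members, so nothing is read from these counts. Npas2, outside the minimum, was past 1.5-fold lower in sham 2 against both other hearts.

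Levels of different genes were compared per kilobase of merged exon in GENCODE M21, which may differ from the annotation behind the counts. Nr1d1 was the highest at 40.2 ± 20.3 CPM per kb and Nr1d2 followed at 17.2 ± 2.77. Per1 was at 8.31 ± 4.26, Cry2 at 6.92 ± 1.81, Clock at 4.59 ± 0.834, Cry1 at 4.04 ± 0.680, Arntl at 2.76 ± 1.62, Per2 at 2.07 ± 2.04, Per3 at 1.75 ± 1.15 and Npas2 at 1.48 ± 0.930 CPM per kb (SD, n = 3). Only between Nr1d2 (14.9 to 20.3) and Per1 (3.42 to 11.3) did the ranges of neighbours in this order not overlap. Within a heart the order moved: per kb, Arntl was 5.01 times Per2 in sham 1, 0.236 times in sham 2 and 3.20 times in sham 3.

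The genes with a pattern most like that of Arntl and of Nr1d1 were taken by the smallest distance of log2(CPM + 0.5) deviations over 3 hearts, among 8761 genes. For Arntl these were Meox1 (28.3, 7.64 and 23.1 CPM in sham 1, 2 and 3; distance 0.154), a homeobox transcription factor gene, then Cdkn1a (81.7, 18.1 and 43.6 CPM), which encodes the cell cycle inhibitor p21, Olfm1 (16.8, 5.16 and 10.7 CPM), Trp53i11 (49.1, 17.4 and 39.1 CPM) and Myoc (25.9, 9.17 and 20.7 CPM). For Nr1d1 they were Col6a2, a type VI collagen chain gene at 149, 60.9 and 192 CPM (distance 0.0508), Prelp, a matrix proteoglycan gene at 157, 57.7 and 188 CPM, the smooth muscle light chain gene Myl9 at 62.9, 23.6 and 74.3 CPM, Itih5 at 25.9, 10.4 and 34.3 CPM and the collagen cross-linking enzyme gene Loxl2 at 23.0, 8.88 and 31.1 CPM. These genes share the low sham 2 value through the way they were picked. Of all genes 45.6% were lowest in sham 2, as were 7 of 7 fibroblast, 6 of 6 endothelial and 6 of 6 macrophage markers. The 10 ventricular cardiomyocyte markers went the other way, with 0 lowest and 9 highest in sham 2, where 23.5% of all genes were highest. The 8 atrial markers had the same order of hearts as Arntl and Npas2, highest in sham 1 and lowest in sham 2. The part of these cell types in the Arntl, Npas2 and Nr1d1 values was not tested.

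Promoter sequences were searched for clock motifs, since these do not depend on the counts. Windows from 250 bases before to 50 after the start site were taken from RefSeq on GRCm38.p6. They covered 9 of the 10 genes, all but Per2, in 13 windows of 300 bases. Both strands were searched for the E-box CACGTG, the E'-box CACGTT, the D-box as TTATGTAA or TTACGTAA, the RORE core TAGGTCA, the CRE TGACGTCA and a glucocorticoid response palindrome. Of all 32851 windows in the table, 7.15% held CACGTG, 4.68% CACGTT, 0.938% TTATGTAA, 0.119% TTACGTAA, 2.61% TAGGTCA, 1.79% TGACGTCA and 0.00913% the palindrome. Among the 9 genes, CACGTG was found in 2, CACGTT in 3, TTATGTAA in 1 and TAGGTCA in 1. A gene was counted on a match in any of its windows, while the shares are of single windows, so the units differ. In all, 6 genes held any of the motifs. The share of all windows with any of them was not taken, so nothing is read from that count. The sites in the member windows are shown because they are the letters through which the arms are known to act on each other. In these 30-base stretches, capitals mark the match, and a match on the opposite strand reads as its complement (AACGTG for the E'-box).
Arntl, RORE core after AAG, chr7:113207528-113207557, plus strand: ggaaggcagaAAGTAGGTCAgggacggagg
Per1, E-box, chr11:69098771-69098800, plus strand: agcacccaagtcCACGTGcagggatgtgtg
Cry1, E-box, chr10:85185097-85185126, minus strand: ggtgccggtggtCACGTGgggtgcatgccg
Cry1, E'-box, chr10:85185116-85185145, minus strand: acacacttcagaAACGTGaggtgccggtgg
Cry2, E'-box, chr2:92434218-92434247, minus strand: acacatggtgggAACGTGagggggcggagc
Nr1d1, E'-box, chr11:98775388-98775417, minus strand: cgcacagatctcAACGTGccggctgctgga

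The Arntl match lay 28 bases after a start site and the RORE core there was preceded by AAN, a longer form that 0.219% of all windows held. Relative to the start, the E-boxes of Per1 and Cry1 began at -166 and -60, and the E'-boxes of Cry1, Cry2 and Nr1d1 at -79, -166 and -28. The Per3 window held a pair of D-boxes and no E-box, the D-boxes beginning at -205 and -158. D-boxes are the sites of the DBP, TEF and HLF activators and of the repressor NFIL3. The 250 bases before the Per3 start are shown whole, with the D-boxes in capitals, as Per3 was the only clock gene with this motif in its window.
Per3, chr4:151044666-151044915, minus strand: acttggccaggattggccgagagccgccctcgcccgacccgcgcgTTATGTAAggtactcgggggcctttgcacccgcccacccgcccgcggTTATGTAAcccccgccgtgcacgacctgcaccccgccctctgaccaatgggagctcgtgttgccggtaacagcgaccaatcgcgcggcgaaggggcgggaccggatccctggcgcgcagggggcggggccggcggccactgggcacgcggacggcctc

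No match was found in the windows of Clock, Npas2 and Nr1d2, which says only that these letters are not in these windows. The matches are of unlike motifs. Arntl (RORE core) and Nr1d1 (E'-box) were lowest in sham 2, Per3 (D-boxes) and Cry2 (E'-box) were highest there, and Per1 (E-box) was neither. The part of the motifs in these values was not tested. For Cry1, sham 2 and sham 1 were not separated by counting error.

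The wider clock output was read from a list of 10 transcription factor and repressor genes, chosen with earlier results of these data known. Of these, 5 were highest in sham 2 and 2 lowest there, against 23.5% and 45.6% of the 8864 genes. The 5 include Ciart, which lies under the 10 CPM minimum of those genes at a mean of 2.87 CPM. They also include Bhlhe41, whose sham 2 and sham 1 values were not separated by counting error. The PAR bZIP activators, which bind D-boxes, had their highest values in sham 2. Tef was at 98.8, 194 and 98.7 CPM in sham 1, 2 and 3, Dbp at 35.4, 64.6 and 42.2 CPM and Hlf at 21.1, 33.6 and 30.1 CPM. Sham 2 over sham 1 was 1.96 (1.82 to 2.12) for Tef, 1.83 (1.61 to 2.08) for Dbp and 1.59 (1.34 to 1.89) for Hlf. Against sham 3 it was 1.96 (1.83 to 2.11) for Tef and 1.53 (1.36 to 1.72) for Dbp, while Hlf at 1.12 (0.964 to 1.30) was not separated by counting error. Ciart, a repressor of the CLOCK and ARNTL pair, was low throughout at 18, 54 and 22 counts, and sham 2 was 3.00-fold above sham 1 (1.73 to 5.44). Among the output genes E-boxes were found in the windows of Tef, Ciart, Klf15 and Bhlhe41, and none in those of Dbp, Hlf, Nfil3 and Klf9. Bhlhe40 and Klf10 had no window to search. Of all single windows, 7.15% held CACGTG, while a gene here was counted on any of its windows. Tef had 1 in each of 2 windows, Ciart and Klf15 had 3 each and Bhlhe41 had 1. For Klf15 and Bhlhe41, sham 2 over sham 1 was 0.991 (0.895 to 1.10) and 1.16 (0.989 to 1.36), with intervals that include 1. Examples from each of these genes are shown with the E-box in capitals.
Tef, E-box, chr15:81802534-81802563, plus strand: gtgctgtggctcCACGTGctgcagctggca
Klf15, E-box, chr6:90462392-90462421, plus strand: tagaacccgtctCACGTGcgcatcggagga
Bhlhe41, E-box, chr6:145865556-145865585, minus strand: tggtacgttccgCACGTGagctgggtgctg
Ciart, E-box, chr3:95882269-95882298, minus strand: cgcagggggaggCACGTGcagaaccgcacg
Ciart, E-box, chr3:95882255-95882284, minus strand: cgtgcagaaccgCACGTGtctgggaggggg

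Nfil3, the D-box repressor and a REV-ERB target, was at 18.4, 17.9 and 22.1 CPM, and the basic helix-loop-helix repressors Bhlhe40 and Bhlhe41 were at 76.4, 62.4 and 56.0 CPM and 28.3, 32.8 and 28.1 CPM. These 3 and Klf9, at 206, 175 and 165 CPM, were within 1.5-fold in every pair of hearts. Klf15, a circadian regulator of cardiac metabolism, was at 71.9, 71.3 and 45.6 CPM, low in sham 3 as Per1 was. Klf10 was at 21.4, 16.3 and 27.1 CPM. In all, 5 of the 9 output genes with a mean of at least 10 CPM were past 1.5-fold in some pair of hearts, against 1159 of the 8864 genes.

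**Figure D4:**
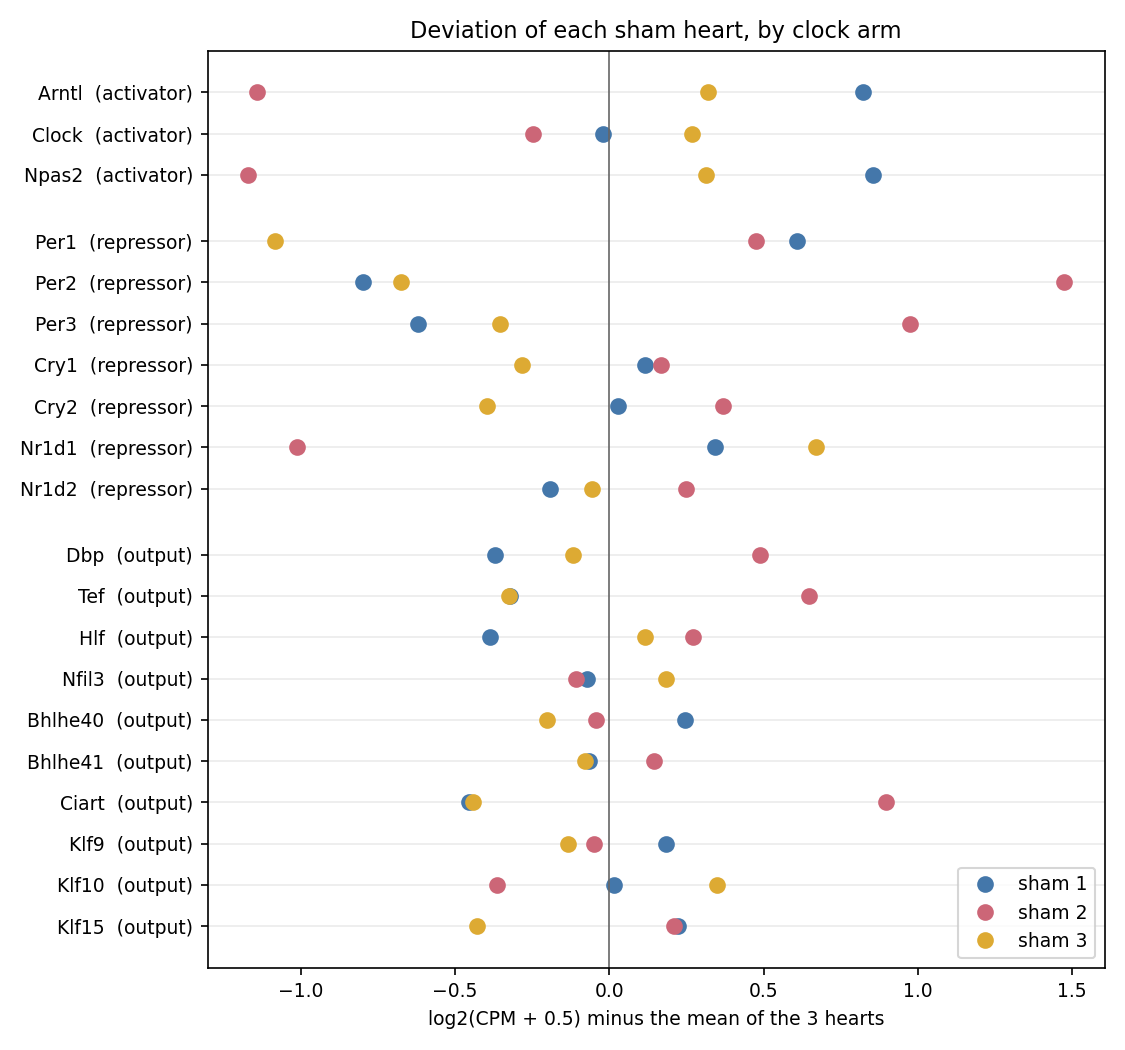
Deviation of each sham heart from the mean of the 3 hearts in log2(CPM + 0.5) (horizontal axis) for the activator arm, the repressor arm and the output factors (rows); each point is a heart. Sham 2 lies lowest for Arntl (-1.14), Npas2 (-1.17) and Nr1d1 (-1.01) and highest for Per2 (1.47), Per3 (0.97), Tef, Dbp and Ciart.

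The modulators of the clock, a list of 19 genes that holds the kinases and ubiquitin ligases that act on PER and CRY and the ROR receptors that oppose REV-ERB at ROREs, was read in the same way. Of its 16 genes with a mean of at least 10 CPM, 2 were past 1.5-fold in some pair, a share near that of all genes (1159 of 8864). The median coefficient of variation was 6.53%, against 9.32% over all genes. The casein kinase genes Csnk1d and Csnk1e were at 83.6, 81.6 and 74.4 CPM and 57.8, 60.7 and 54.1 CPM. Rora was at 36.5, 37.2 and 31.3 CPM. Timeless was among the genes past 1.5-fold. It is a gene of DNA replication whose fly namesake is a clock gene, and it was at 14.1, 15.4 and 31.7 CPM, highest in sham 3.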

How the data were processed

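Total RNA from 6 hearts was sequenced, and all samples carry the same batch label. Per the submitters' processing notes, the authors used Trimmomatic, HISAT2, HTSeq and DESeq with mouse build mm9. Their versions, the annotation and the use of strand: not given in the sources used here. Raw counts by gene symbol were deposited by the authors, with 1 column per heart matched by name. From these counts, CPM was computed with Python 3.11.15, pandas 2.3.3 and scipy 1.17.1. Intervals are exact Poisson for levels and exact Clopper-Pearson for ratios, at 95%, and cover counting error only. The half-widths of the arm differences are a normal approximation. The minimum was a mean of 10 CPM, the fold 1.5 and the pseudocount 0.5. Because the CKD labels did not hold, the planned edgeR test of CKD against sham was not run. edgeR 4.0.16 (TMM) and DESeq2 1.42.0 (size factors) in R 4.3.3 served for scaling alternatives. Ratio calls and intervals were tested on simulated data that held counting error alone. With no spread between animals in those data, the calls were not tested against such spread. The members and gene lists were chosen with earlier results of these data known. Genes named were the members, listed clock genes past 1.5-fold with at most 8 per list, and the 5 nearest to Arntl and to Nr1d1; Wdfy1 and listed genes within 1.5-fold were named after their values were seen. Some listed genes are not reported here. Motifs and exon lengths come from RefSeq GRCm38.p6 and GENCODE M21, another build than mm9, and were matched by symbol.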

Additional observations from a re-analysis of the deposited data

How the results depend on the processing

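No paired analysis was possible because the gene labels of the CKD columns do not match their values and no test between groups was made. Over rows with at least 10 counts in both columns, the highest correlation of a CKD with a sham column was 0.0109. The activator minus repressor difference in sham 1, 2 and 3 kept its sign in every setting with 3 hearts. With the median over members it was 0.79 and -1.51 in sham 1 and 2, and with a pseudocount of 5 it was 0.42, -0.86 and 0.45. With the Per and Cry genes alone as repressors it was -1.54 in sham 2 and 0.86 in sham 3, and without Nr1d1, an alternative chosen after the values were seen, -1.47 and 0.78. Leaving out 1 heart, the difference was 0.00727 to 0.932 in sham 1, -0.932 to -0.925 in sham 2 and -0.00727 to 0.925 in sham 3, so the gap rests on sham 2. The cause was not tested. With a minimum of 1 CPM, more genes were tested and 393 were higher and 1628 lower in sham 2 over sham 1, 276 and 1875 in sham 2 over sham 3, and 989 and 594 in sham 3 over sham 1. With TMM library sizes 195 were higher in sham 2 over sham 1 and 133 in sham 2 over sham 3, where the median log2 ratio of all genes moved to 0.04 from -0.07. No member changed direction with TMM or DESeq2 scaling, and with DESeq2 size factors 2 passed 1.5-fold that had not: Cry1 in sham 2 over sham 3 and Npas2 in sham 3 over sham 1. With a pseudocount of 5, the log2 ratios of low members shrank, to 1.63 for Per2 and -1.14 for Npas2 in sham 2 over sham 1. With 1 heart a side, ratios near 1 in the lowest genes (Npas2, Per2, Per3 and Cry1) are limited by depth.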

Other observations

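Beyond the core loop, 21 genes known as clock-controlled in heart or other tissues were read in the sham hearts, on a list chosen with earlier results of these data known. Of these, 12 were highest in sham 2, where 23.5% of the 8864 genes with a mean of at least 10 CPM were highest. The 12 include Lonrf3, which lies under that minimum at a mean of 2.17 CPM. They also include genes for which sham 2 was not separated from another heart by counting error. These were Nampt, Tspan4 and Tcap against sham 3, and Kcnh2 and Lonrf3 against sham 1. Of the 20 that passed it, 9 were past 1.5-fold in some pair of hearts, against 1159 of the 8864. The deubiquitinase gene Usp2 was at 95.3, 158 and 84.9 CPM in sham 1, 2 and 3, and the cell cycle kinase gene Wee1 at 9.26, 19.3 and 8.45 CPM. The phosphoinositide 3-kinase subunit gene Pik3r1 was at 96.4, 173 and 142 CPM and the transferrin receptor gene Tfrc at 68.3, 103 and 120 CPM.

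Pdk4, which encodes a brake on pyruvate oxidation, went the other way and was lowest in sham 2, at 536, 334 and 738 CPM, as was Cdkn1a. The uncoupling protein gene Ucp3 was at 50.1, 62.6 and 107 CPM, highest in sham 3, and the glucocorticoid-induced Tsc22d3 at 93.8, 79.3 and 57.7 CPM. Among listed genes within 1.5-fold in every pair of hearts, Nampt, which encodes an enzyme of NAD synthesis, was at 296, 326 and 313 CPM, the potassium channel gene Kcnh2 at 119, 125 and 106 CPM and the potassium channel subunit gene Kcnip2 at 229, 216 and 167 CPM. These are values of single hearts, given as a description with no test.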
